A study of Mus musculus with 2 samples.

Results

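The miR-29 family of the mouse is made of 4 microRNA genes, Mir29a, Mir29b-1, Mir29b-2 and Mir29c, at 2 loci. They were found by their GENCODE M21 gene names among the 2202 microRNA genes counted, and all 4 names matched 1 gene each. The libraries held small RNA, taken from total RNA of the heart with an upper limit on fragment size, from the male B6CASTF1/J mouse at 10 days of age. B6CASTF1/J is a hybrid of C57BL/6J and the wild-derived CAST strain. The labels name no treatment, knockout or transgene. There were 2 libraries, biological replicates 1 and 2 of a single group, with separate biological samples and a common donor identifier in the labels. They were taken as separate animals from the sample identifiers, and n = 2 below rests on that reading. No condition was contrasted, so each comparison below is between members or between the libraries.

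MicroRNAs are short RNAs cut from a hairpin precursor. They bind messenger RNAs mainly through the seed, bases 2 to 8 of the mature strand, and lower the output of those messengers. The miR-29 family is known for repressing genes of the extracellular matrix, among them collagens, elastin and fibrillin. In the heart it is commonly called antifibrotic, since its level falls in scarring tissue while collagen rises. The 4 genes yield 3 kinds of 3p strand, miR-29a, miR-29b and miR-29c, and the 3p strand is the one usually regarded as the active product.

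The 3p strands carry the family's identity and are shown with the seed in capitals (RefSeq, GRCm38.p6, the build of the counts).
mmu-miR-29a-3p: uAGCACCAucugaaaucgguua
mmu-miR-29b-3p: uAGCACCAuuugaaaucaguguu
mmu-miR-29c-3p: uAGCACCAuuugaaaucgguua
All 4 genes share the seed AGCACCA, and none of the other genes in the reference set of 1738 mature entries carries it. Counting from the 5′ end, miR-29c-3p differs from miR-29a-3p by 1 base, C10U, outside the seed. Against miR-29b-3p, miR-29a-3p has 4 differences over 22 bases: C10U, G18A, U21G and A22U. The 3p strands of miR-29b and miR-29c are identical over their first 17 bases and then differ by A18G, G21U and U22A. The 3p strand of Mir29b-1 equals that of Mir29b-2 over all 23 bases.

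The 5p strands are shown because they differ where the 3p strands do not, again with bases 2 to 8 in capitals.
mmu-miR-29a-5p: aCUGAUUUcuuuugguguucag
mmu-miR-29b-1-5p: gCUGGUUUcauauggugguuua
mmu-miR-29b-2-5p: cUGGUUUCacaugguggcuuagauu
mmu-miR-29c-5p: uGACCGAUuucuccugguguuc
No 5p seed was shared by any pair of the 4 genes as annotated. The annotated 5p strand of Mir29b-2 is 25 bases long and the other three are 22. Among the hairpins of all counted genes, only miR-29b-3p of the 8 mature entries of the family was found whole in a second hairpin outside its own locus. A read of the whole miR-29b-3p therefore fits Mir29b-1 and Mir29b-2 equally, whereas the 5p strands tell these genes apart.

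**Figure D1:**
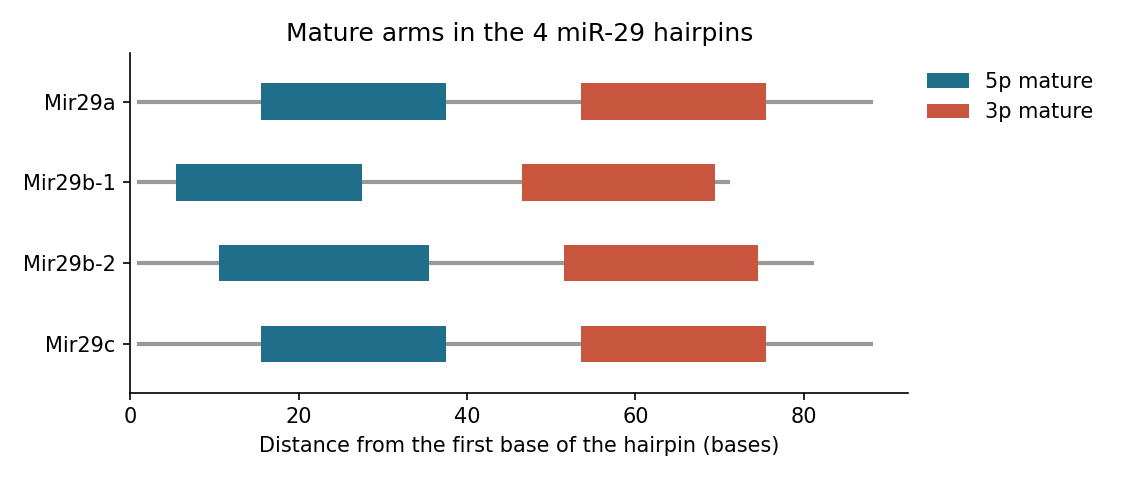
The 4 hairpins drawn to scale, with distance from the first base on the horizontal axis and the 5p and 3p mature strands as blocks. Mir29a and Mir29c have the same layout, with 88 bases and a 3p strand that starts at base 54, while the hairpins of Mir29b-1 (71 bases) and Mir29b-2 (81 bases) are shorter.

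Mir29a (ENSMUSG00000065610.1) and Mir29b-1 (ENSMUSG00000065604.2) lie on the minus strand of chromosome 6 in mm10, at chr6:31062660-31062747 and chr6:31063023-31063093. The hairpins are 275 bases apart, and Mir29b-1 comes first in the direction of transcription. In GENCODE M21 Mir29a overlapped no other gene. Mir29b-1 overlapped the neighbouring lincRNA Gm27019 by 2 bases of its exon on the same strand. The hairpins of this locus are shown with both mature strands in capitals, 5p first, because their members differed most in level.
Mir29a hairpin: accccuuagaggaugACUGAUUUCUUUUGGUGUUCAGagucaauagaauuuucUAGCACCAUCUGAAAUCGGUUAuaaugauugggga
Mir29b-1 hairpin: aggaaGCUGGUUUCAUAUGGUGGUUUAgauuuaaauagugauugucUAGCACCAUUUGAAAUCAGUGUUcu
The longest stretch that these hairpins share is 11 bases.

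Mir29b-2 (ENSMUSG00000065412.3) and Mir29c (ENSMUSG00000065548.1) lie on the plus strand of chromosome 1, at chr1:195037040-195037120 and chr1:195037547-195037634. They are 426 bases apart, with Mir29b-2 first. Both hairpins are wholly inside exon 3 of a transcript of the noncoding host gene A330023F24Rik. On the opposite strand they lie inside a UTR exon of Cd46, which encodes a complement regulator. The opposite strand of each of the 4 genes had 0 counts in both libraries, which at 3 counts allows up to 0.8003 CPM (each gene's part of 1000000 gene counts) in replicate 1 and 0.476 CPM in replicate 2. The longest stretch shared by hairpins was 25 bases for Mir29b-1 and Mir29b-2, 22 for Mir29b-1 and Mir29c, 19 for Mir29b-2 and Mir29c, and 14 for Mir29a and Mir29c.

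The gene counts summed to 3748432 in replicate 1 and 6305782 in replicate 2, and 340 genes had at least 10 counts in both (called detected here). The tables list reads that mapped to several positions as an entry of their own (36.8% in replicate 1, 48.1% in replicate 2). That they are in no gene count was inferred, since genes and entries sum to the same total in each of the 3 count columns (8835703 and 17033667 reads). The cardiomyocyte markers Mir208a, Mir208b and Mir499 summed to 8268 and 12348 CPM, but in opposite directions: Mir208a stood at 3795 and 1362 CPM, Mir208b at 794 and 3444, and Mir499 at 3678 and 7542. The 6 neuronal marker genes had 2 counts in each library. Every matched mature strand of Mir9-1, Mir9-2 and Mir9-3 is found whole in another counted hairpin. Their low counts therefore do not show that the RNA was absent. No mature strand was matched for Mir124a-1, Mir124a-2 and Mir124a-3, so a shared strand was not searched for in these genes. Their lack of counts does not show absence either. Every matched mature strand of Mir199a-1, Mir199a-2 and Mir199b, among the fibroblast markers, is also found whole in another counted hairpin. The fibroblast markers, 5 genes, summed to 3934 and 7945 CPM, and to 1460 and 1798 CPM without Mir21a. The sums were 88957 and 100563 CPM for endothelium, 44790 and 53313 for smooth muscle, and 9908 and 8704 for red cells. They were 1959 and 2192 CPM for leukocytes, 57.9 and 77.7 for liver, and 28.5 and 21.1 for skeletal muscle. Red cell markers went in opposite directions, with Mir451a at 9591 and 8251 CPM and Mir144 at 316 and 453. Leukocyte markers did too: Mir155 stood at 1430 and 1191 CPM, and the others summed to 530 and 1001.

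Mir29a supplied most of the family's counts. It had 1117 counts, or 298 CPM (exact binomial 95% interval 281 to 316), in replicate 1 and 1478 counts, or 234 CPM (223 to 247), in replicate 2, with a mean of 266 ± 44.97 CPM (SD, n = 2). Both libraries placed it in the upper part of the detected genes, at rank 114 and rank 117 of all genes, and 65.3% of the detected genes had a lower mean. These intervals cover counting error only, since amplified reads are not independent molecules.

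Mir29c came next, with 116 counts, or 30.9 CPM (25.6 to 37.1), in replicate 1 and 187 counts, or 29.7 CPM (25.6 to 34.2), in replicate 2. Its mean was 30.3 ± 0.913 CPM, and the libraries' intervals overlapped almost wholly. Mir29a had 9.63 times the counts of Mir29c in replicate 1 (interval 7.95 to 11.8) and 7.90 times in replicate 2 (6.78 to 9.25). Both hairpins have 88 bases, so these ratios are the same per length.

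Both miR-29b genes were at the low end of detection. Mir29b-1 had 18 counts, or 4.80 CPM (2.85 to 7.59), in replicate 1 and 46 counts, or 7.29 CPM (5.34 to 9.73), in replicate 2. Mir29b-2 had 10 counts, or 2.67 CPM (1.28 to 4.91), and 21 counts, or 3.33 CPM (2.06 to 5.09). With 10 counts in replicate 1, Mir29b-2 stood exactly at the minimum for detection. Only 3.53% of the detected genes had a lower mean than Mir29b-2, and 14.1% a lower mean than Mir29b-1. A read of whole miR-29b-3p fits both hairpins, and the table does not say which strand of the hairpin a count came from, so the level of miR-29b-3p in the tissue cannot be read from these counts.

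The order was Mir29a, Mir29c, Mir29b-1, Mir29b-2 in each library, also after division by hairpin length. Each step down to Mir29b-1 was larger than counting error: Mir29c had 6.44 times the counts of Mir29b-1 in replicate 1 (3.90 to 11.3) and 4.07 times in replicate 2 (2.93 to 5.74). Mir29b-1 and Mir29b-2 were not separated in replicate 1, with a ratio of 1.80 and an interval of 0.788 to 4.36 that spans equality. In replicate 2 the ratio was 2.19 (1.28 to 3.86).

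**Figure D2:**
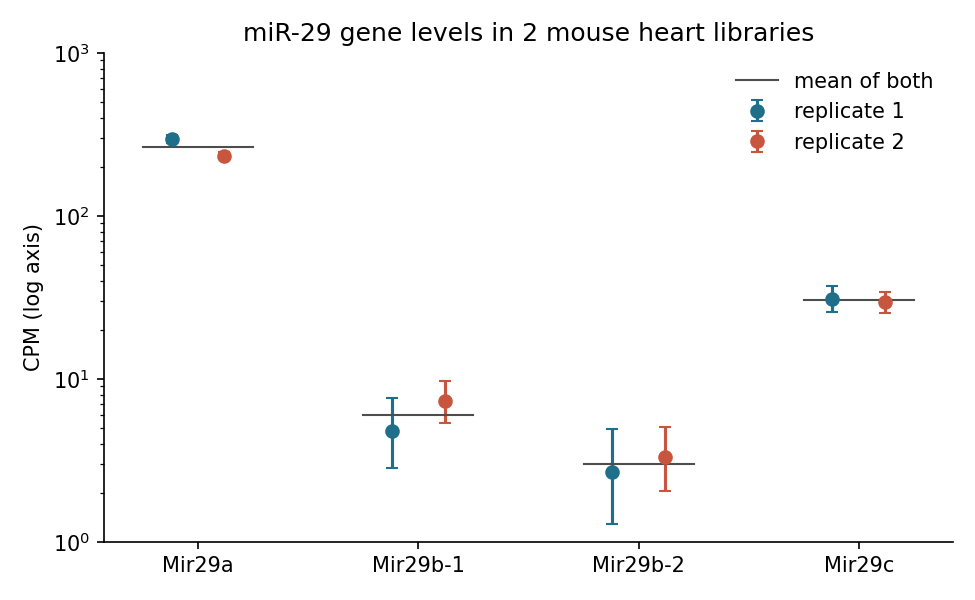
Level of each miR-29 gene in CPM on a log axis, with 1 point per library, exact binomial 95% intervals as bars and the mean as a line. Mir29a sits at 298 and 234 CPM, Mir29c near 30.3 CPM, and both miR-29b genes below 10 CPM with wide intervals.

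As a whole the family took 0.0336% of the counts in replicate 1 (0.0318% to 0.0355%) and 0.0275% in replicate 2 (0.0262% to 0.0288%). In bulk tissue, fewer cells that express a microRNA and less of it per cell cannot be told apart. Of the family's counts, Mir29a took 88.6% in replicate 1 (86.7% to 90.3%) and 85.3% in replicate 2 (83.6% to 87.0%). The chromosome 6 locus as a whole took 90.0% and 88.0%. Reads of whole miR-29b-3p fit both miR-29b hairpins and by inference are in no gene count. These shares are therefore of counts and may miss miR-29b-3p. The chromosome 1 locus stood at 33.6 and 33.0 CPM in replicates 1 and 2, against 303 and 242 CPM for the chromosome 6 locus.

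The miR-29b genes were also low beside other genes with a duplicated product. Mature sequences were matched for 1018 of the counted genes, and 111 of these carry at least 1 mature strand that is found whole in another counted hairpin. Of those 111 genes 41 were detected, with a median of 50.6 CPM, and 37 of the 41 had a higher mean than Mir29b-1, whereas 1 had a lower mean than Mir29b-2. Among the 907 genes with no such strand matched, 266 were detected, with a median of 68.0 CPM. Of these 266, 227 had a higher mean than Mir29b-1 and 10 a lower mean than Mir29b-2, so the miR-29b genes were low there too. Only matched strands were searched, and some genes, such as Mirlet7a-2 and Mir1a-1, had 1 matched. A duplicated strand may therefore have been missed among the 907. There were 37 gene pairs that alone share an identical mature strand, and the summed mean of the miR-29b pair, 9.05 CPM, was the 21st highest of them. Of these pairs 10 had no count, and 23 had a detected gene, among which the miR-29b pair was again the 21st.

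The highest 3 such pairs had far more counts. Mirlet7f-1 and Mirlet7f-2 summed to 6233 CPM, nearly all of it from Mirlet7f-2 (6040 CPM). Mir16-1 and Mir16-2 summed to 2244 CPM, and Mir92-1 and Mir92-2 to 1739 CPM. The part that reads with several mapping positions play in any of these levels was not tested.

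Between the libraries, Mir29a was the only member whose difference passed the test. Each gene's counts were set against the ratio of library sizes, scaled by TMM (trimmed mean of M values, which sets the typical gene to no difference), in an exact binomial test, two-sided, with p adjusted by Benjamini-Hochberg over the 340 detected genes. The test compares 2 libraries against counting error and concerns no condition. Mir29a was lower in replicate 2, with a log2 ratio of -0.20 (exact 95% interval -0.32 to -0.09, adjusted p = 0.000668), or 1.15-fold. In the same test 72.1% of the detected genes passed, 37.9% as lower and 34.1% as higher in replicate 2, so passing was common and the size of the ratio says more. The ratio of Mir29a was smaller in size than that of 274 of the 340 genes, whose median absolute log2 ratio was 0.54.

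Mir29c had a log2 ratio of 0.08 (-0.26 to 0.43, exact binomial test, adjusted p = 0.721), and only 6.47% of the detected genes had a smaller one in size. With total counts as the scaling it was -0.064. The ratio of Mir29b-1 was 0.72 (-0.07 to 1.62, adjusted p = 0.0975) and that of Mir29b-2 0.43 (-0.69 to 1.71, adjusted p = 0.531). The intervals of both miR-29b genes reach beyond 3-fold higher in replicate 2, so a difference of that size was not excluded for either. Scaling by total counts lowers every log2 ratio by 0.14, which also moves the median of all genes by that amount, from -0.05 to -0.19.

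**Figure D3:**
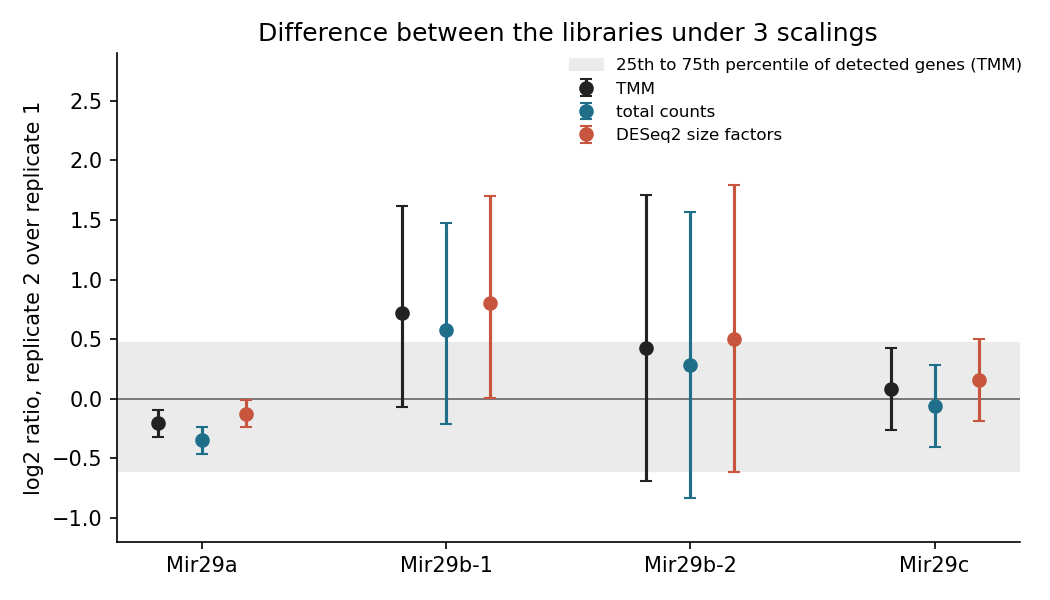
Log2 ratio of replicate 2 over replicate 1 for each miR-29 gene under 3 scalings, with exact 95% intervals as bars and the range from the 25th to the 75th percentile of all detected genes (-0.61 to 0.47 after TMM) shaded. Mir29a lies below 0 under each of the 3 scalings, while the interval of Mir29c spans 0 under each.

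**Figure D4:**
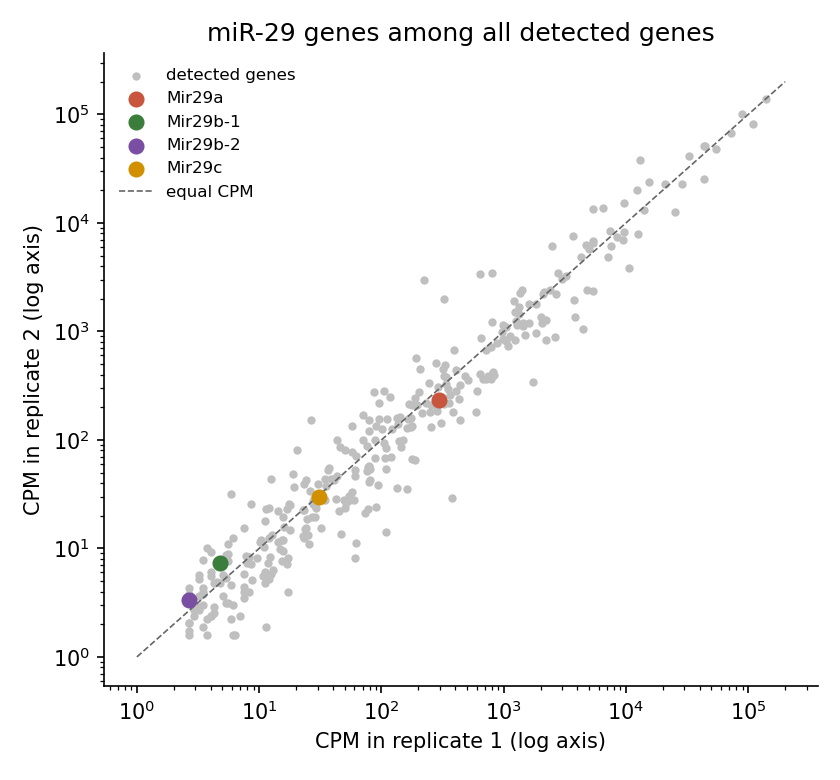
CPM in replicate 1 against replicate 2 on log axes for the 340 detected genes, with the miR-29 genes in colour and a dashed line at equal CPM. Mir29a and Mir29c lie close to the line in the middle of the cloud, and the miR-29b genes lie in its lower corner.

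Ratios within a locus do not depend on library scaling, and members of a locus are thought to be cut from a common transcript. Reads of whole miR-29b-3p fit both miR-29b genes and by inference are in no gene count. The ratios below are therefore of counts, not of mature product. Mir29a had 62.1 times the counts of Mir29b-1 in replicate 1 (39.1 to 105.1) and 32.1 times in replicate 2 (24.0 to 44.1). The share of Mir29a in this pair went from 98.4% to 97.0%, a difference in Fisher's exact test (p = 0.0207, adjusted p = 0.0413 over the 2 miR-29 pairs). Adjusted instead over 106 pairs of neighbouring detected genes on 1 strand, at most 10 kb apart, a comparison added after seeing the data, Fisher's exact test gave p = 0.0327. This change rests on the 18 counts of Mir29b-1 in replicate 1. Mir29c had 11.6 times the counts of Mir29b-2 in replicate 1 (6.09 to 24.8) and 8.90 times in replicate 2 (5.66 to 14.7), which did not pass Fisher's exact test (p = 0.565, or 0.643 adjusted over the 106 pairs).

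Of the 106 neighbouring pairs 63.2% passed that test, so a changed ratio was usual. The log2 ratio of Mir29a to Mir29b-1 changed by -0.95, more than the median absolute change of 0.52, and 34 pairs changed more. For Mir29c and Mir29b-2 the change was -0.38, and 64 pairs changed more. Neighbours often had unequal counts: the median log2 ratio of the more abundant to the less abundant gene was 2.39. At a mean log2 ratio of 5.48, Mir29a and Mir29b-1 were among the least equal in counts, with 8 pairs further apart. Mir29c and Mir29b-2, at 3.35, had 38 pairs further apart. For both miR-29 pairs the limit on miR-29b-3p reads given above holds.

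**Figure D5:**
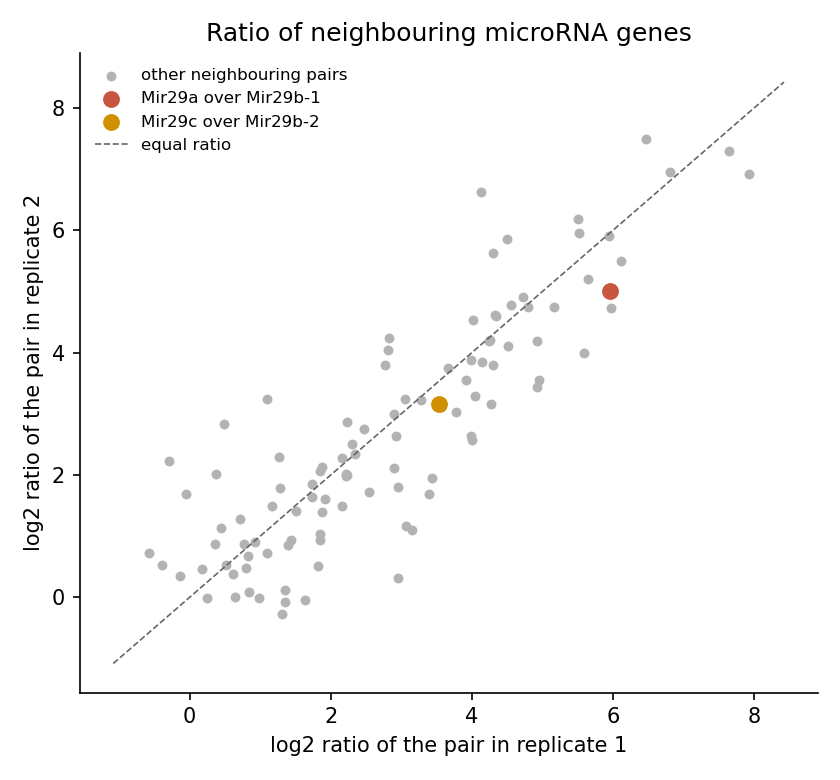
Log2 ratio of the more abundant to the less abundant gene in each of 106 neighbouring pairs, in replicate 1 against replicate 2, with a dashed line at equal ratios. Both miR-29 pairs lie below the line, Mir29a over Mir29b-1 (5.96 and 5.01) further than Mir29c over Mir29b-2 (3.54 and 3.15).

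The genes nearest to Mir29a by level in both libraries, measured as distance on the log2(CPM + 1) scale, were Mir30c-1, Mir409 and Mir574. Mir30c-1 had 289 and 233 CPM, Mir409 320 and 231 CPM, and Mir574 324 and 216 CPM. Nearest to Mir29c were Mir378c with 28.0 and 28.7 CPM, Mir677 with 34.7 and 28.2 CPM, and Mir429 with 28.8 and 26.2 CPM. The likeness is over 2 libraries only.

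Other microRNAs linked to cardiac fibrosis differed between the libraries in both directions. A list of 11 further genes reported to restrain matrix deposition had 9 detected, of which 4 were higher in replicate 2, 3 lower and 2 did not pass the exact binomial test. That is near the 72.1% of all detected genes that passed. Its median log2 ratio was 0.78, beside -0.05 over all detected genes and 0.25 over the 4 miR-29 genes. That median is the value of Mir133a-1, which had 10 and 27 counts and did not pass. Mir30c-1, Mir30c-2, Mir24-1, Mir24-2, Mir26a-1 and Mir26a-2 each carry a mature strand found whole in another counted hairpin. Their counts may therefore miss reads of it. No mature strand was matched for Mir133a-1 and Mir133a-2, so a shared strand was not searched for in these genes and the same limit may hold. Mir26b led this list with 12906 and 37666 CPM, and Mir30c-2 followed with 407 and 284 CPM. With DESeq2 size factors 4 of the 9 were higher, 2 lower and 3 did not pass, beside 69.7% of all detected genes passing.

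The list of 7 genes reported to promote fibrosis had 6 detected, 3 higher and 3 lower in replicate 2, with a median log2 ratio of 0.18, beside the same 72.1% over all detected genes. With DESeq2 size factors 3 were higher, 1 lower and 2 did not pass, beside 69.7%. Mir21a, linked to fibroblast activation, stood at 2474 and 6146 CPM, and Mir208a, encoded in a myosin gene, was lower in replicate 2. The leading gene of each list exceeded Mir29a in both libraries. Among the fibroblast markers Mir21a made up most of the higher sum in replicate 2, and Mir199b went the other way, with 108 and 83.4 CPM. With DESeq2 size factors Mir199b did not pass (log2 ratio -0.15, exact binomial test, adjusted p = 0.144). Its counts may also miss reads of its shared strand. The part of these markers in the miR-29 values was not tested.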

How the data were processed

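Small RNA of 2 mouse heart libraries was analysed. The authors deposited raw counts of reads per microRNA gene, 1 table per library, on mm10 with GENCODE M21, per the text files that accompany the tables. For the aligner and the counter, names and settings were not given in the sources used here. The column of reads on the gene strand was used, its meaning inferred from the values, and 4 entries that name no gene stayed out of library sizes. CPM are per 1000000 gene-strand counts. Names, coordinates and hairpins came from GENCODE M21 and mature sequences from RefSeq, with 8 mature entries for the members. TMM factors came from edgeR 4.0.16 over all genes with a count, size factors from DESeq2 1.42.0, and log2 ratios used a prior of 0.5 counts. Exact tests and Clopper-Pearson 95% intervals came from scipy 1.17.1, with 0.05 as the threshold. The exact test was tried on simulated counts that held counting error alone, without TMM scaling. That trial does not cover a spread between animals. All p-values set 1 library against the other on counting error alone and hold no spread between animals.

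Members and lists were chosen with earlier results of these data known. The named genes are the members, the 3 nearest genes to Mir29a and to Mir29c, the 2 leading genes of each fibrosis list and the 3 leading pairs with an identical mature strand. The comparison with all neighbouring pairs was added after seeing the data. Of the red cell markers, 2 of 4 names matched.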

Additional observations from a re-analysis of the deposited data

How the results depend on the processing

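The count of genes that differed between the libraries, 245, ranged from 220 with reads on both strands to 252 with no filter on low counts, with 243 under total counts and 237 under DESeq2 size factors. The genes tested were 340, 316 with reads on both strands and 733 with no filter, so that without a filter 34.4% passed in place of 72.1%. Mir29a stayed lower in replicate 2 and past the threshold under each of the 5 alternatives run (log2 ratio -0.35 to -0.13, adjusted p from 4.06e-09 to 0.0408 in the exact binomial test). Of these, the prior and the filter could not change its exact p before adjustment. With DESeq2 size factors the interval of Mir29a ended near 0 (-0.24 to -0.013). Both miR-29b genes kept a positive ratio that did not pass. Mir29c, which passed nowhere, turned to -0.064 under total counts, which lower every ratio. The family share, 0.0306% on average, was 0.0275% to 0.0336% with either library alone. It was 0.0122% of all reads, with unmapped and multiply mapped reads in the total. With the column for both strands it was 0.0419%. That column held fewer gene counts (2756527 in replicate 1 and 4558006 in replicate 2) and the same counts for the members, so only the total differed. The share of Mir29a in its pair with Mir29b-1, 97.7% on average, was 97.0% to 98.4% with either library alone. That of Mir29c in its pair with Mir29b-2, 91.0%, was 89.9% to 92.1%. No paired analysis was possible because the libraries form 1 group. Counting error weighs most on the miR-29b genes, with at most 46 counts in a library. The part that reads fitting both miR-29b hairpins play in these low counts was not tested.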
